A study of Homo sapiens with 24 samples.

Results

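The ZFP36 family of AU-rich element binders was followed in U2OS cells, a human osteosarcoma cell line, through a soluble and an insoluble cytoplasmic fraction under 4 treatments. The family is here the 3 genes ZFP36, ZFP36L1 and ZFP36L2, taken by symbol from 60308 genes with exon counts and 37473 genes with intron counts. All 3 were found in both tables. Control cells (Ctrl) received 0.12% DMSO for 2 h, stressed cells received 500 µM NaAsO2 for 60 min, RK-33 cells received 6 µM RK-33, an inhibitor of the RNA helicase DDX3, with 1 h of pre-treatment, and co-treated cells received RK-33 and then NaAsO2 at the same doses. No DMSO dose is recorded for the other treatments, so Ctrl and NaAsO2-treated cells may also differ in DMSO. Each of the 8 groups of treatment and fraction had 3 libraries, which the study's methods describe as repeats of the whole experiment. The labels do not say whether same-numbered libraries come from the same repeat. The insoluble fraction is the pellet of a fast spin after nuclei had been removed, which is enriched for stress granules and P-bodies. All groups share the cell line, so the values describe a single tumour line.

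The genes were chosen by earlier results of these data, on the difference in the insoluble-to-soluble ratio between co-treated and NaAsO2-treated cells. Levels and ratios in those 2 treatments compared with each other are therefore given as a description, with no test. Tests are given for comparisons that this choice did not use, although the comparisons of NaAsO2 with Ctrl and of co-treatment with RK-33 share libraries with it.

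ZFP36 (tristetraprolin), ZFP36L1 and ZFP36L2 are zinc finger proteins that bind AU-rich elements in the 3′ untranslated region (UTR) of short-lived mRNAs and bring in the CCR4-NOT complex, which shortens the poly(A) tail. Decapping and decay from the 5′ end follow. The p38 kinase and its target MK2 (MAPKAPK2) phosphorylate the proteins, which then bind 14-3-3 proteins and act less on their targets, and the phosphatase PP2A reverses this. The ZFP36 mRNA is an immediate early transcript that carries AU-rich elements of its own. The proteins are known in P-bodies and, under some stresses only, in stress granules. Where the proteins were in these cells was not measured.

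ZFP36 lies on chr19:39406847-39409412 on the plus strand, with 1976 exon bases and 590 intron bases. ZFP36L1 lies on chr14:68787660-68796253 on the minus strand, with 5160 exon bases and 2922 intron bases. ZFP36L2 lies on chr2:43222402-43226606 on the minus strand, with 3693 exon bases and 512 intron bases (all GRCh38, positions of the deposited tables). The exons of ZFP36L2 share 826 bases, 22.4% of their length, with a long non-coding RNA gene on the opposite strand, and the counting used no strand, so reads there could not be told apart. That neighbour held 0 to 16 counts per library. How reads over the shared bases were assigned was not examined, so this count sets no known limit on them. Another long non-coding RNA gene lies on the same strand inside an intron of ZFP36L1, with 4 to 87 counts and 0 shared exon bases.

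The sites that these proteins are known to bind are shown because each member also carries them in its own mRNA. In the longest annotated 3′ UTR of GENCODE release 44, ZFP36 (713 bases) held 5 copies of ATTTA, ZFP36L1 (1871 bases) held 8 and ZFP36L2 (1917 bases) held 5. Each of the 3 held 3 copies of the longer core TATTTAT and 1 copy of the 9-base core TTATTTATT, in which the shorter cores are nested. Among 13411 tested genes with an annotated 3′ UTR, 75.6% held ATTTA, 37.3% held TATTTAT and 10.0% held TTATTTATT. The TATTTAT sites are printed 5′ to 3′ on the strand of the gene, with the core in capitals.
ZFP36, chr19:39409188-39409217, plus strand: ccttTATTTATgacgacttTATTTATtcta
ZFP36, chr19:39409228-39409242, plus strand: atagTATTTATatat
ZFP36L1, chr14:68788343-68788357, minus strand: aacgTATTTATtgcc
ZFP36L1, chr14:68788301-68788315, minus strand: ttcaTATTTATcggg
ZFP36L1, chr14:68788084-68788098, minus strand: ggatTATTTATttta
ZFP36L2, chr2:43223455-43223469, minus strand: aactTATTTATtatc
ZFP36L2, chr2:43223407-43223421, minus strand: actgTATTTATcaag
ZFP36L2, chr2:43223219-43223233, minus strand: gtaaTATTTATttca
ZFP36 differed from its paralogs in that a pair of its cores stood within a single window of 30 bases, while the sites of ZFP36L1 and ZFP36L2 stood apart. Binding at these sites was not measured.

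A promoter window of 250 bases before to 50 bases after the start was at hand for ZFP36 (1 window) and ZFP36L1 (2 windows), from RefSeq on GRCh38.p14. They were searched on both strands for the cAMP response element TGACGTCA, the AP-1 site TGANTCA, the EGR site GCGNGGGCG, the heat shock element core GAANNTTC and the CArG box of SRF, the kinds of site through which immediate early and stress genes are known to be induced. None was found in the window of ZFP36 or in the upstream window of ZFP36L1. The downstream window of ZFP36L1 held a cAMP response element 52 bases before the start, a sequence that 1.85% of 35116 promoter windows held, shown with the element in capitals.
ZFP36L1, chr14:68793450-68793479, minus strand: agtggaatgagTGACGTCAcagccgcgctc
The same window held an EGR site and a heat shock element core, which 9.43% and 6.77% of all windows held.

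A library held 8627294 to 15376554 exon counts and 1621536 to 6092652 intron counts. RUNX2, SPARC, COL1A1 and VIM, markers of the mesenchymal origin of the line, were at 45.4 CPM (counts scaled to library size, with TMM factors) or more in all 24 libraries, while COL1A2 of the same list reached no more than 2.25 CPM. Of the markers of other cell types and of genes that this line is known to lack, ALB, TERT and CDKN2A reached no more than 0.257, 0.138 and 0.375 CPM, and PTPRC, PECAM1 and EPCAM no more than 2.08, 3.05 and 7.27 CPM. Replicate 3 of the insoluble fraction after NaAsO2 stood apart, since the abundant RN7SL1 RNA held 5.79% of its exon counts against 0.426% to 1.23% in the other insoluble libraries. The main values of the insoluble fraction after NaAsO2 are given with and without it. All values are relative to the library, so that a smaller pool of all other RNA in a fraction and more RNA of a gene cannot be told apart, nor can fewer cells and less RNA per cell. Per the labels, SIRV spike-in RNA was added to each library, but 0 rows of the exon and intron tables carry a spike-in name, so no spike-in scaling was made here.

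ZFP36 was a minor member in Ctrl cells and rose the most across the 4 treatments. Its exon level in Ctrl was 10.3, 11.9 and 12.7 CPM in the soluble fraction and 4.87, 4.64 and 3.57 CPM in the insoluble one. After NaAsO2 it stood at 30.9, 34.8 and 30.6 CPM in the soluble fraction and 32.9, 28.3 and 30.6 CPM in the insoluble one. Both fractions were thus above Ctrl in every library, and the soluble and insoluble ranges overlapped only after NaAsO2. With RK-33 alone it stood at 18.8, 16.1 and 23.5 CPM in the soluble fraction and 10.0, 9.22 and 9.21 CPM in the insoluble one. In co-treated cells it reached 115, 135 and 135 CPM in the soluble fraction and 46.0, 51.1 and 41.9 CPM in the insoluble one. The soluble co-treated libraries were the highest of all 24, with a mean of 128 ± 11.7 CPM (SD, n = 3). That is 29.4 times the mean of the insoluble Ctrl libraries, a fold that spans both fraction and treatment. Within the soluble fraction the Ctrl mean was 11.6 CPM. Within the insoluble fraction the co-treated mean was 10.6 times that of Ctrl.

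ZFP36L1 was the most abundant member and peaked in another group. It stood at 317, 307 and 313 CPM in the soluble fraction and 186, 190 and 177 CPM in the insoluble one of Ctrl cells. After NaAsO2 it stood at 402, 378 and 400 CPM in the soluble fraction and 739, 663 and 765 CPM in the insoluble one. The insoluble NaAsO2 libraries were above all others, at 3.91 times the mean of the insoluble Ctrl libraries. RK-33 alone gave 384, 398 and 456 CPM in the soluble fraction and 229, 218 and 232 CPM in the insoluble one. Co-treated cells gave 427, 450 and 383 CPM in the soluble fraction and 375, 424 and 338 CPM in the insoluble one. In the order of the 8 means, the soluble co-treated, soluble RK-33, soluble NaAsO2 and insoluble co-treated groups followed the top group, and each of these overlapped the next.

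ZFP36L2 changed least, and 7 of its 8 groups formed a chain in which each range overlapped the next. It stood at 33.9, 42.5 and 31.8 CPM in the soluble fraction and 37.1, 36.2 and 34.5 CPM in the insoluble one of Ctrl cells. After NaAsO2 it stood at 35.2, 31.1 and 37.4 CPM in the soluble fraction and 97.6, 92.5 and 71.2 CPM in the insoluble one. The 3 insoluble NaAsO2 libraries lay above every other library, and the lowest of them was the replicate 3 that stood apart. RK-33 gave 41.1, 37.1 and 35.3 CPM in the soluble fraction and 40.4, 50.5 and 42.7 CPM in the insoluble one. Co-treated cells gave 45.6, 52.8 and 44.9 CPM in the soluble fraction and 51.6, 56.7 and 43.7 CPM in the insoluble one.

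**Figure D1:**
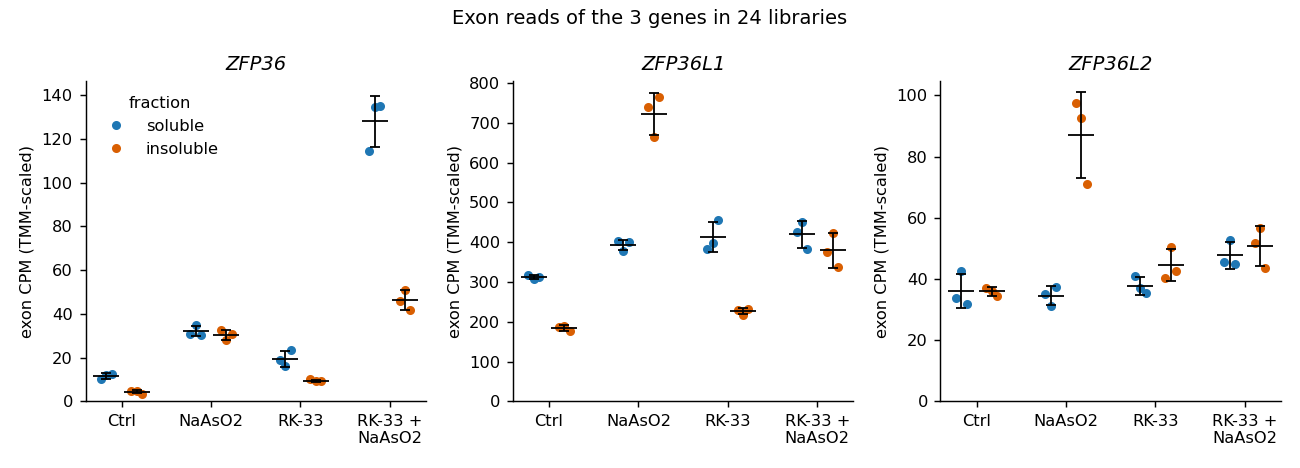
Exon reads of ZFP36, ZFP36L1 and ZFP36L2 in CPM (y axis, TMM-scaled, a separate scale for each gene) in the soluble (blue) and insoluble (orange) libraries of the 4 treatments; points are libraries, and bars are the mean ± SD of 3. ZFP36 is highest in the soluble co-treated libraries (mean 128 CPM), while ZFP36L1 and ZFP36L2 are highest in the insoluble NaAsO2 libraries (means 722 and 87.1 CPM).

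Per kilobase of merged annotated exon, the make-up of the family differed between groups. On this scale the shares of the genes depend on the annotated exon lengths. In the soluble fraction of Ctrl cells, ZFP36L1 held 79.5% ± 1.94 (SD, n = 3) of the summed CPM per kilobase of the 3 genes, ZFP36L2 held 12.8% ± 1.88 and ZFP36 held 7.74% ± 0.808. In the soluble fraction of co-treated cells ZFP36L1 held 51.1% ± 3.05 and ZFP36 held 40.7% ± 3.18. The share of ZFP36 was 15.97% ± 1.52 in the soluble fraction after NaAsO2 and 9.80% ± 1.16 after RK-33. The summed level was 76.2 ± 0.771 CPM per kilobase in the soluble fraction and 47.7 ± 1.93 in the insoluble one of Ctrl cells, and 179 ± 9.77 in the insoluble fraction after NaAsO2, the highest of the 8 groups. The part of the shared bases of ZFP36L2 in these shares was not tested.

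**Figure D2:**
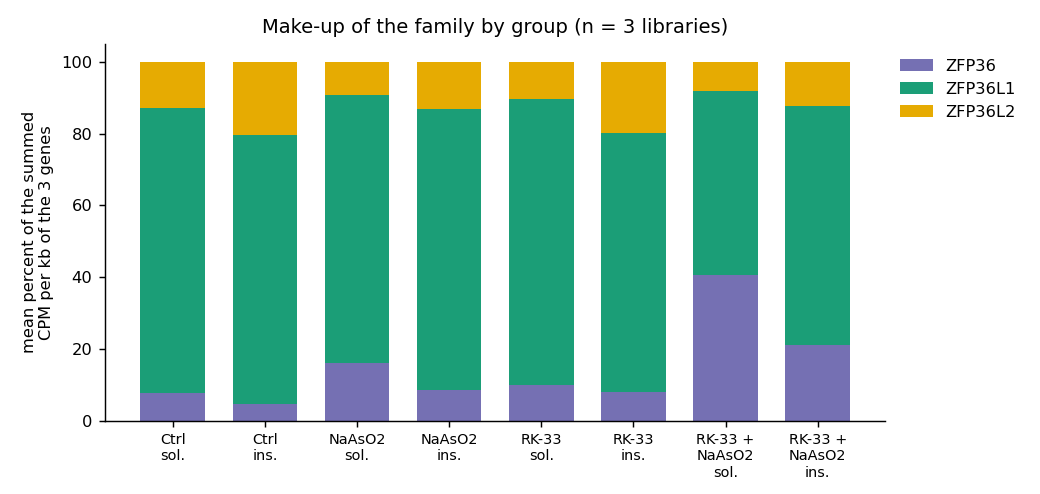
Stacked bars of the mean percent (y axis) that each gene held of the summed exon CPM per kilobase of the family, for the soluble (sol.) and insoluble (ins.) fraction of each treatment, 3 libraries per bar. ZFP36L1 is the largest part in every bar, and ZFP36 is largest in the soluble co-treated bar, at 40.7%.

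NaAsO2 raised all 3 genes in the insoluble fraction and ZFP36 and ZFP36L1 in the soluble fraction. This comparison asks how the mRNAs responded to stress in each fraction. In the insoluble fraction, ZFP36 rose by 2.81 ± 0.159 (log2 fold change ± SE, edgeR adjusted p = 5.76e-11), ZFP36L1 by 1.97 ± 0.105 (edgeR adjusted p = 5.18e-11) and ZFP36L2 by 1.28 ± 0.141 (edgeR adjusted p = 6.29e-07), where 43.1% of 17666 tested genes passed the test. ZFP36L1 had the smallest p of all genes tested in this comparison. The NaAsO2 libraries of both fractions also served to choose the genes. Neither this rank nor the p-values of the 3 genes after NaAsO2 are therefore independent results. In the soluble fraction, ZFP36 rose by 1.46 ± 0.144 (edgeR adjusted p = 9.56e-07) and ZFP36L1 by 0.33 ± 0.102 (edgeR adjusted p = 0.0326), and 13.3% of genes passed. The value of ZFP36L2 in the soluble fraction was -0.06 ± 0.142 (edgeR adjusted p = 0.809). The ranges of ZFP36L2 overlapped there, with a 95% interval of -0.34 to 0.22. Without the replicate 3 that stood apart, the insoluble values were 2.88 for ZFP36, 1.99 for ZFP36L1 and 1.47 for ZFP36L2. The soluble rise of ZFP36L1 did not pass when any 1 of the 6 soluble Ctrl and NaAsO2 libraries was left out (edgeR adjusted p 0.0504 to 0.144), nor without any 1 of 7 libraries of other groups (NaAsO2 insoluble replicate 1, RK-33 soluble replicate 2 and insoluble replicate 3, co-treated soluble replicates 1, 2 and 3 and insoluble replicate 2, edgeR adjusted p 0.0622 to 0.0850), nor with library size alone (log2 fold change 0.15, edgeR adjusted p = 0.387), which moved the median of all genes from 0.03 to -0.15.

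RK-33 without NaAsO2 raised ZFP36 in both fractions. ZFP36 rose by 0.74 ± 0.144 in the soluble fraction (edgeR adjusted p = 0.00294) and by 1.12 ± 0.165 in the insoluble fraction (edgeR adjusted p = 7.10e-05), and its RK-33 libraries did not overlap those of Ctrl in either fraction. ZFP36L1 rose by 0.40 ± 0.102 in the soluble fraction (edgeR adjusted p = 0.0204), which did not pass when any 1 of the 3 soluble Ctrl libraries or soluble RK-33 replicate 3 was left out (edgeR adjusted p 0.0618 to 0.146). Its insoluble value was 0.29 ± 0.102 (edgeR adjusted p = 0.0591), and without the NaAsO2 replicate 3 that stood apart 0.30 (edgeR adjusted p = 0.0156). ZFP36L2 stood at 0.07 ± 0.141 in the soluble fraction and 0.31 ± 0.141 in the insoluble one (edgeR adjusted p = 0.855 and 0.161), and the latter was 0.32 without that library (edgeR adjusted p = 0.0418). Of all genes tested, 5.33% passed in the soluble fraction and 13.9% in the insoluble one.

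When NaAsO2 was added to RK-33, ZFP36 rose in both fractions and ZFP36L1 in the insoluble fraction. Against RK-33 alone, ZFP36 rose by 2.72 ± 0.141 in the soluble (edgeR adjusted p = 1.31e-11) and by 2.28 ± 0.145 in the insoluble fraction (edgeR adjusted p = 5.46e-10). ZFP36L1 rose by 0.74 ± 0.102 in the insoluble fraction (edgeR adjusted p = 5.14e-05), and its soluble value was 0.03 ± 0.101 (edgeR adjusted p = 0.941). ZFP36L2 stood at 0.34 ± 0.140 and 0.19 ± 0.139 (edgeR adjusted p = 0.236 and 0.498), with 95% intervals of 0.06 to 0.61 in the soluble fraction and -0.09 to 0.46 in the insoluble one. Without the replicate 3 that stood apart, its soluble value was 0.35 (edgeR adjusted p = 0.0459). In this comparison 3.65% of genes passed in the soluble fraction and 7.12% in the insoluble one. The co-treated libraries also served to choose the genes, so the p-values of ZFP36, ZFP36L1 and ZFP36L2 here are no independent results. The response of ZFP36 to NaAsO2 in the soluble fraction was thus 1.46 without and 2.72 with RK-33 on the log2 scale, and the difference between these responses was not tested.

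In unstressed cells the library-scaled levels of ZFP36 and ZFP36L1 were lower in the insoluble than in the soluble fraction. ZFP36L2 was called in neither direction. Ratios here compare scaled libraries, so how much of each mRNA lay in each fraction was not measured. The insoluble-to-soluble ratio in Ctrl was -1.42 ± 0.164 for ZFP36 (log2 ± SE, edgeR adjusted p = 3.40e-07) and -0.76 ± 0.102 for ZFP36L1 (edgeR adjusted p = 2.79e-06), in a comparison where 51.0% of genes passed. For ZFP36L2 the ratio was -0.01 ± 0.142 (edgeR adjusted p = 0.973), with a 95% interval of -0.28 to 0.27. With RK-33 alone, where 59.6% of genes passed, the ratios were -1.03 ± 0.146 for ZFP36, -0.87 ± 0.102 for ZFP36L1 and 0.23 ± 0.140 for ZFP36L2 (edgeR adjusted p = 3.09e-06, 2.70e-07 and 0.153). RK-33 alone gave no call on the ratio itself. The change in the ratio from Ctrl was 0.39 ± 0.219 for ZFP36, -0.11 ± 0.144 for ZFP36L1 and 0.24 ± 0.199 for ZFP36L2, so that 0 of 3 passed edgeR's test (adjusted p = 0.465, 0.832 and 0.674), 0 of 3 were at an unadjusted p under 0.05, and 2.18% of all genes passed. DESeq2 and edgeR's likelihood ratio test also called 0 of 3.

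NaAsO2 went with higher insoluble-to-soluble ratios for all 3 genes, and with RK-33 present the ratios were lower again. For ZFP36, the log2 ratios of same-numbered libraries were -1.08, -1.35 and -1.82 in Ctrl, 0.09, -0.30 and 0.00 after NaAsO2, and -1.32, -1.39 and -1.69 in co-treated cells. The co-treated range thus fell within that of Ctrl, and the NaAsO2 values lay above both. ZFP36L1 gave -0.76, -0.69 and -0.82 in Ctrl, 0.88, 0.81 and 0.93 after NaAsO2, and -0.19, -0.09 and -0.18 in co-treated cells. Here the 3 treatments did not overlap, and the co-treated cells lay between Ctrl and NaAsO2. ZFP36L2 gave 0.13, -0.23 and 0.12 in Ctrl, 1.47, 1.57 and 0.93 after NaAsO2, and 0.18, 0.10 and -0.04 in co-treated cells. The co-treated values of ZFP36L2 overlapped those of Ctrl.

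**Figure D3:**
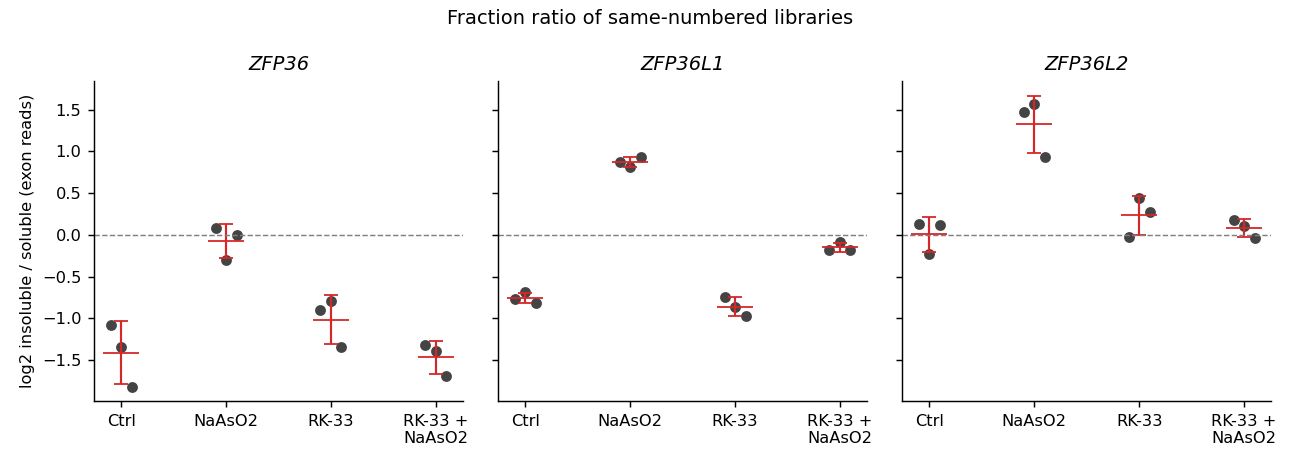
Log2 ratio of insoluble to soluble exon reads (y axis, 0.5 counts added) of same-numbered libraries for the 4 treatments. Grey points are the 3 ratios, red bars their mean ± SD, and the dashed line marks equal library-scaled levels. NaAsO2 has the highest mean in each panel (-0.07, 0.87 and 1.32), and co-treated cells stand at -1.47, -0.15 and 0.08.

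In the fit of all libraries, the ratio of co-treated minus NaAsO2-treated cells was -1.40 ± 0.189 for ZFP36, -1.02 ± 0.144 for ZFP36L1 and -1.25 ± 0.197 for ZFP36L2 (log2 ± SE). This is the contrast on which the genes were selected, so no test is given and the call is no finding. Of all genes, 0.357% were called in it, 0.136% as higher and 0.221% as lower. That split of 24 higher and 39 lower calls became 20 and 62 with RLE size factors and 19 and 119 with library size alone. The change had different parts in the 3 genes. For ZFP36, the soluble level was 2.00 ± 0.137 higher and the insoluble level 0.60 ± 0.134 higher in co-treated than in NaAsO2-treated cells. For ZFP36L1 the soluble difference was 0.09 ± 0.101 and the insoluble difference -0.93 ± 0.102. For ZFP36L2 they were 0.47 ± 0.141 and -0.78 ± 0.138. Thus ZFP36 was higher in both fractions with RK-33 present and more so in the soluble one, while the paralogs were lower in the insoluble fraction. Without replicate 3 of the insoluble NaAsO2 libraries, the changes in ratio were -1.48, -1.06 and -1.46. With library size alone, with RLE factors and without 7SL RNA genes the sign was the same for all 3.

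Intron reads, which can come from unspliced RNA, from excised introns or from other transcripts made within an intron, rose with the exon reads for ZFP36 and not for ZFP36L1. The intron counts of ZFP36 were 6 to 9 and 2 to 5 per library in soluble and insoluble Ctrl, 17 to 23 and 19 to 35 after NaAsO2, 18 to 26 and 14 to 22 after RK-33, and 127 to 158 and 60 to 103 in co-treated cells. The highest counts were again those of the soluble co-treated libraries. Its intron reads rose by 1.85 ± 0.362 in the soluble fraction and 3.26 ± 0.383 in the insoluble one after NaAsO2 (edgeR adjusted p = 0.00204 and 8.77e-07), where 5.27% and 31.3% of 17406 genes passed, and the insoluble rise was 2.93 without the replicate 3 that stood apart. The source of the intron reads was not tested. RK-33 alone gave 1.93 ± 0.419 in the insoluble fraction (edgeR adjusted p = 0.00743, 2.80% of genes passed) and 1.39 ± 0.363 in the soluble fraction (edgeR adjusted p = 0.0566, and 0.0173 without the NaAsO2 replicate 3 that stood apart, 1.07% of genes passed). The insoluble call did not pass without insoluble Ctrl replicate 2 or insoluble RK-33 replicate 3 (edgeR adjusted p = 0.0713 and 0.0657). Co-treated against RK-33-treated cells, ZFP36 introns rose by 2.63 ± 0.260 and 2.39 ± 0.273 (edgeR adjusted p = 8.07e-09 and 8.01e-08), where 28.7% and 29.8% of genes passed.

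The intron share of ZFP36, the percent of exon plus intron counts, was 5.13% to 6.52% in the soluble Ctrl libraries and 8.07% to 8.56% in the soluble co-treated libraries. These ranges did not overlap, and the difference was not tested. The Ctrl shares rest on 6, 9 and 7 intron counts, with Wilson 95% intervals of 2.37% to 10.7%, 3.47% to 11.9% and 2.72% to 11.02%, and each of these intervals holds the 3 co-treated shares. Intervals cover counting error only. Over all genes, the intron share was 17.7% to 22.3% in the soluble Ctrl libraries and 18.1% to 28.4% in the soluble co-treated libraries, which overlapped.

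ZFP36L1 introns did not pass the test after NaAsO2. They had -0.43 ± 0.194 in the soluble fraction and -0.04 ± 0.199 in the insoluble one (edgeR adjusted p = 0.202 and 0.900, the latter value being -0.16 without replicate 3). Exon reads of ZFP36L1 rose in the insoluble fraction. The soluble exon rise of 0.33 did not pass without any 1 of 13 libraries. RK-33 alone gave 0.61 ± 0.186 for its introns in the soluble fraction (edgeR adjusted p = 0.135, and 0.0264 without NaAsO2 insoluble replicate 3). The intron share of ZFP36L1 was 8.43% to 9.55% in the insoluble Ctrl libraries and 1.10% to 1.83% in the insoluble NaAsO2 libraries. These ranges did not overlap. Over all genes, introns held 30.5% to 36.3% of the counts in the insoluble Ctrl libraries and 17.2% to 24.3% in the insoluble NaAsO2 libraries. Those ranges did not overlap either. Against RK-33 alone, ZFP36L1 introns fell by 1.07 on the log2 scale in the soluble fraction of co-treated cells (SE 0.188, edgeR adjusted p = 7.69e-05). How the intron counts are scaled matters here. With the library sizes of the exon table, the ZFP36L1 introns fell by 0.81 in both the soluble and the insoluble fraction after NaAsO2 (edgeR adjusted p = 0.0267 and 0.00524), beside medians of -0.33 and -0.72 over all genes on that scale.

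ZFP36L2 introns rose by 2.20 ± 0.419 in the insoluble fraction after NaAsO2 (edgeR adjusted p = 0.000310), from 9 to 17 counts per library to 24 to 65. Replicate 3, the library that stood apart, had 65 of these counts and an intron share of 9.77% against 1.72% and 2.44% in the other 2, and without it the rise was 1.54 ± 0.401 (edgeR adjusted p = 0.00492). Co-treated against RK-33-treated cells, the insoluble value was 1.30 ± 0.439 (edgeR adjusted p = 0.0236), which did not pass when RK-33 replicate 1 or 2 or co-treated replicate 1 or 3 of the insoluble fraction was left out (edgeR adjusted p 0.0563 to 0.119). The soluble values were -0.55 ± 0.450 after NaAsO2 and 0.50 ± 0.411 for co-treatment against RK-33 (edgeR adjusted p = 0.524 and 0.387). For the change in the intron ratio between co-treated and NaAsO2-treated cells, the values were -1.11 ± 0.371 for ZFP36, -0.07 ± 0.280 for ZFP36L1 and -1.73 ± 0.581 for ZFP36L2, and over all genes edgeR's quasi-likelihood test called 0, with 1445 at an unadjusted p under 0.05, its likelihood ratio test 8 and DESeq2 1. Without replicate 3 these values were -0.78, 0.05 and -1.07.

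**Figure D4:**
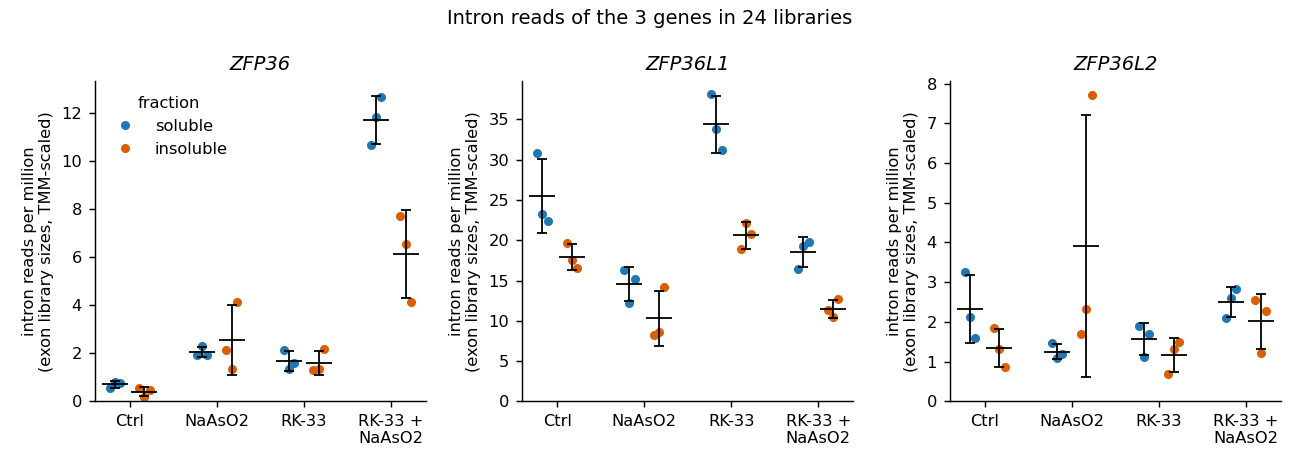
Intron reads of the 3 genes in CPM (y axis, scaled with the exon library sizes and TMM factors, a separate scale for each gene) in soluble (blue) and insoluble (orange) libraries, with points for libraries and bars for the mean ± SD of 3. ZFP36 introns are highest in the soluble co-treated libraries, ZFP36L1 introns are lower after NaAsO2 than in Ctrl on this scale (on the scale of the intron counts themselves the insoluble value was -0.04), and the high insoluble NaAsO2 point of ZFP36L2 is replicate 3.

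Of 25 genes of deadenylation, decapping and linked repression that ZFP36 proteins are known to recruit, all tested, 3 rose and 0 fell in the soluble fraction after NaAsO2, and 4 rose and 3 fell in the insoluble fraction. Over all genes tested, 6.31% rose and 1237 of 17666 fell in the soluble fraction, and 21.2% rose and 21.8% fell in the insoluble one. The median log2 fold change of the list was 0.20 and 0.09 against 0.03 and -0.02 for all genes. CNOT10, a subunit of CCR4-NOT, fell by 1.10 in the insoluble fraction (SE 0.161, edgeR adjusted p = 1.95e-05), and CNOT2, another subunit, fell by 0.74 (SE 0.291, edgeR adjusted p = 0.0446). GIGYF1, a partner of the cap-binding repressor EIF4E2, rose by 1.05 ± 0.200 there (edgeR adjusted p = 0.000320), and EDC4, a decapping scaffold, rose by 0.71 ± 0.127 in the soluble fraction (edgeR adjusted p = 0.000806). The counts changed without the replicate 3 that stood apart. In that fit 7 rose and 1 fell in the soluble fraction, where 15.4% and 13.97% of 17689 genes did, and 13 rose and 1 fell in the insoluble fraction, where 22.3% and 20.3% of genes did, with an insoluble median of 0.30 against -0.03 for all genes. There the insoluble values were -0.81 for CNOT10, 0.67 for GIGYF1 and -0.30 for CNOT2, and CNOT2 did not pass (edgeR adjusted p = 0.185).

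The kinase list held 16 genes of the p38, MK2 and PP2A axis upstream of the family and of the 14-3-3 proteins. After NaAsO2, 5 of them rose in the soluble fraction and 7 in the insoluble one, and 0 fell in either. Over all genes, 6.31% and 21.2% rose, while 1237 of 17666 and 21.8% fell. The median was 0.33 and 0.44 against 0.03 and -0.02 for all genes. DUSP1, a phosphatase that switches off p38, rose by 1.06 ± 0.219 in the soluble fraction and 2.37 ± 0.227 in the insoluble one (edgeR adjusted p = 0.00273 and 1.00e-07), from 54.5 ± 2.20 to 282 ± 153 CPM (mean ± SD, n = 3) in the latter. MAPK11 (p38 beta) rose by 1.41 ± 0.324, MAPKAPK2, the kinase that phosphorylates ZFP36, by 0.95 ± 0.190 and SFN, a 14-3-3 protein, by 0.96 ± 0.320 in the insoluble fraction (edgeR adjusted p = 0.00161, 0.000493 and 0.0193). Without the replicate 3 that stood apart these 3 values were 0.59, 0.67 and 0.16, SFN did not pass (edgeR adjusted p = 0.489), and the insoluble value of DUSP1 was 1.89. In that fit 9 of the 16 rose and 1 fell in the soluble fraction, where 15.4% and 13.97% of all genes did, and 9 rose and 0 fell in the insoluble one, where 22.3% of all genes rose and 20.3% fell.

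Of 11 genes of other proteins that bind AU-rich or stem-loop decay elements, 3 rose and 1 fell in the soluble fraction after NaAsO2, where 6.31% of all genes rose and 1237 of 17666 fell. In the insoluble fraction 2 rose and 3 fell, which is near the 21.2% and 21.8% of all genes. Their medians were 0.11 and 0.03 against 0.03 and -0.02. ZC3H12A (regnase-1), an endonuclease of inflammatory mRNAs, rose by 0.82 ± 0.173 in the soluble fraction and 1.57 ± 0.172 in the insoluble one (edgeR adjusted p = 0.00314 and 5.61e-07). RC3H2 (roquin-2) rose by 0.75 ± 0.151 in the insoluble fraction and TIA1, a stress granule protein, fell by 0.80 there (SE 0.278, edgeR adjusted p = 0.000541 and 0.0239), while ZC3H12C fell by 0.71 in the soluble fraction (SE 0.225, edgeR adjusted p = 0.0397). Without that replicate 3, 4 rose and 2 fell in the insoluble fraction, where 22.3% and 20.3% of all genes did, and the insoluble values were 1.32 for ZC3H12A, 1.02 for RC3H2 and -0.34 for TIA1 (edgeR adjusted p = 1.08e-09, 2.01e-08 and 0.0435).

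Of 36 mRNAs known as targets of the family or as carriers of AU-rich elements, 26 passed the filter of 1 CPM. After NaAsO2, 13 rose and 5 fell in the insoluble fraction, where 21.2% and 21.8% of all genes did, and 3 rose and 2 fell in the soluble fraction, where 6.31% rose and 1237 of 17666 fell. The medians were 0.46 and -0.06 against -0.02 and 0.03 for all genes. IER3, an early response gene, rose by 2.65 ± 0.184 in the insoluble fraction (edgeR adjusted p = 9.37e-10), from 29.6 ± 4.85 to 185 ± 59.1 CPM (mean ± SD, n = 3). FOS, a subunit of AP-1, rose by 2.29 ± 0.141 in the soluble fraction and 2.57 ± 0.143 in the insoluble one (edgeR adjusted p = 7.26e-10 and 5.45e-11). MCL1, a survival factor, rose by 1.80 ± 0.174 in the insoluble fraction (edgeR adjusted p = 1.11e-07). Without the replicate 3 that stood apart, 14 rose and 3 fell in the insoluble fraction, with a median of 0.43, and 6 rose and 3 fell in the soluble fraction, where 15.4% and 13.97% of all genes did. In that fit the insoluble values were 2.43 for IER3, 2.55 for FOS and 1.52 for MCL1. RK-33 alone gave 8 rises and 0 falls in the soluble fraction and 9 rises and 2 falls in the insoluble one, where 2.09% and 5.71% of all genes rose and 3.24% and 8.19% fell, with medians of 0.24 and 0.27 against -0.01 and 0.00 for all genes. In the contrast of the insoluble-to-soluble ratio between co-treated and NaAsO2-treated cells, 0 of the 26 passed edgeR's quasi-likelihood test at 0.357% of all genes. Their median was -0.36 against 0.00. With a log2 change of at least 1, RLE factors or library size alone, 0 to 2 of the 26 were called lower and 0 higher. Over all genes, 19, 62 and 119 were called lower in those settings. DUSP1 stands in both this list and the kinase list. The lists were drawn up with earlier results of these data known.

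**Figure D5:**
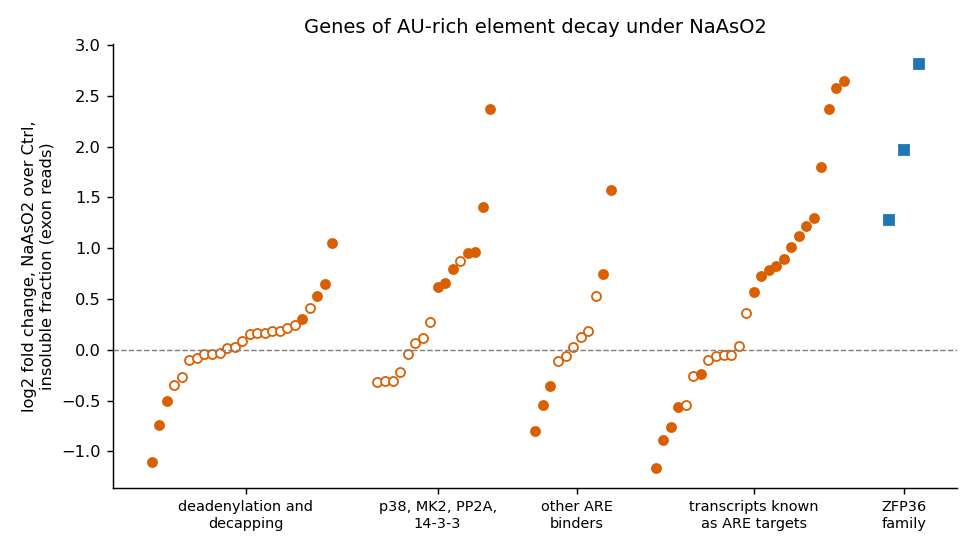
Log2 fold change of NaAsO2 over Ctrl in the insoluble fraction (y axis, exon reads) for the tested genes of the 4 lists, each sorted from low to high, and for the ZFP36 family (blue squares); filled circles passed edgeR's test at an adjusted p under 0.05 and open circles did not. The known targets reach from CCL20 at -1.16 to IER3 at 2.65, and the family stands at 1.28, 1.97 and 2.81.

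The 9-base core TTATTTATT gave a wider view that uses no list. Of the 1346 tested genes that held it, 21.3% had a higher and 9.29% a lower insoluble-to-soluble ratio after NaAsO2 than in Ctrl, against 12.96% and 13.2% of all 13411 genes with a 3′ UTR. Of all genes tested, 22.3% were called, 1935 as higher and 2008 as lower. The median change of the ratio was 0.16 against 0.02. By fraction, their median change was -0.05 against 0.09 in the soluble and 0.07 against 0.07 in the insoluble one. For the ratio of co-treated minus NaAsO2-treated cells, their median was 0.03 against 0.00. In that contrast 0.149% were called higher and 0.446% lower, against 0.172% and 0.254%. Of the 6 called lower, 3 were the members. The genes with the core had longer 3′ UTRs, with a median of 3252 against 1558 bases. The part of length in these differences was not tested. Without the replicate 3 that stood apart, 32.2% of 1343 such genes were higher and 8.64% lower, against 18.9% and 15.4% of 13405 genes, with medians of 0.26 and 0.02.

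Across the 24 libraries, the genes closest to each member by correlation were not the other members. The genes with the highest Pearson correlation of log2 CPM to ZFP36, among 10260 genes at 10 CPM or more, were BTG2 (r = 0.987), EGR1 (0.964), HMOX1 (0.951), SNAI1 (0.947) and IER5L (0.946). BTG2, an antiproliferative gene whose product binds CCR4-NOT, had 99.2 ± 13.2 CPM in the soluble co-treated libraries and 19.7 ± 1.89 in soluble Ctrl. For ZFP36L1 they were NR4A1 (0.949), IER3 (0.927), SERTAD3 (0.926), SRSF8 (0.910) and CDC42EP4 (0.896), and for ZFP36L2 they were RERE (0.849), MEX3B (0.845), VDR (0.845), RSBN1L (0.845) and ABHD17C (0.841). Between members r was 0.689 for ZFP36 and ZFP36L1, 0.650 for ZFP36L1 and ZFP36L2, and 0.362 for ZFP36 and ZFP36L2. Among the 10260 genes, ZFP36L1 ranked 196 in likeness to ZFP36 and 410 in likeness to ZFP36L2. To ZFP36L1, ZFP36 ranked 356 and ZFP36L2 ranked 500. ZFP36L2 ranked 1966 to ZFP36, and ZFP36 ranked 2941 to ZFP36L2. The closest genes were picked from all 10260 and the members were not, so their r values are not a like comparison. Without the replicate 3 that stood apart, the named genes kept r of 0.821 to 0.988 over 23 libraries, and the members had 0.725, 0.599 and 0.359. These values are a description over libraries that share treatments and fractions.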

How the data were processed

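U2OS RNA from both cytoplasmic fractions was depleted of rRNA and sequenced with a directional kit. The authors aligned reads with STAR 2.7.2b and counted them per gene over exons and over introns with featureCounts (GENCODE annotation on GRCh38), and deposited raw counts, used here as deposited. Gene lines split in the tables were rejoined. The count command as described sets no strand. The table of back-splice counts held 0 rows of the 3 genes.

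Counts of all 24 libraries were fitted together in edgeR 4.0.16 (R 4.3.3) with 8 groups, TMM factors (0.817 to 1.09 for exons) and a filter of a mean of 1 CPM, which left 17666 genes for exons and 17406 for introns. Quasi-likelihood tests were adjusted over all genes by Benjamini-Hochberg, and a call is an adjusted p under 0.05. Log2 CPM used a prior count of 0.5. Each intron share has a 95% Wilson interval, which covers counting error only, at 8627294 to 15376554 exon counts per library. The scripts were tested on simulated data.

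The members, the lists and the tests were chosen with earlier results of these data known. The planned test of the insoluble-to-soluble ratio between co-treated and NaAsO2-treated cells is given without p-values for the members, since they were selected on it, and so are the contrasts within those treatments. List genes were named by the size of their called change after NaAsO2, at a mean of 10 CPM or more, and likeness genes by the 5 highest correlations per member. Alternatives were RLE factors, library size alone, removal of 7SL genes, other filters, a fold threshold, the likelihood ratio test, DESeq2 1.42.0, fits of only the groups compared, replicate blocks, exon-scaled intron counts and leaving out each library.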

Additional observations from a re-analysis of the deposited data

Results flagged for a closer look

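Each value here is the mean log2 insoluble-to-soluble ratio of the first treatment minus that of the second, and was flagged because all 3 same-numbered ratios were above 0 in one treatment and below 0 in the other. These differences were not tested. Groups of 3 libraries are too small for the check for outlying samples.

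For ZFP36L1 exon reads, NaAsO2 minus Ctrl was 1.63, RK-33 minus NaAsO2 was -1.74 and co-treated minus NaAsO2 was -1.02. The 3 ratios were positive only after NaAsO2 and negative in the other 3 treatments. For ZFP36L2 intron reads, NaAsO2 minus Ctrl was 2.07, and the 3 NaAsO2 ratios of 0.19, 1.04 and 2.65 had an SD of 1.25. The highest of them came from insoluble replicate 3, the library with an RN7SL1 share of 5.79%.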

How the results depend on the processing

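Of 2232 recomputed values of the 3 genes, 0 changed the sign of a call, 29 lost and 26 gained a call, and 9 values without a test moved beyond the replicate spread. The cause of these changes was not tested. After NaAsO2 in the soluble fraction, ZFP36L1 exon reads had 0.15 with library size alone, 0.34 with no filter and 0.23 at 10 CPM or more, and did not pass. After RK-33 in the soluble fraction ZFP36L1 had 0.32 with library size alone and 0.43 with no filter, and did not pass. In the insoluble fraction after RK-33 ZFP36L1 passed with library size alone (0.35), without 7SL genes (0.33), at 10 CPM or more (0.33), in DESeq2 (0.30) and with only the groups compared (0.29), where ZFP36L2 also passed (0.30). The ZFP36L2 ratio in RK-33 passed at 10 CPM or more (0.32). With exon-scaled library sizes, ZFP36L1 introns passed at -0.81 after NaAsO2 in both fractions and at -0.84 for insoluble co-treated against RK-33, ZFP36L2 introns there had 0.80 and did not pass, and the soluble co-treated minus NaAsO2 value of ZFP36 introns was 2.51.

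The calls on the ratio of co-treated minus NaAsO2-treated cells over all genes, 24 higher and 39 lower, depended most on the setting. They were 6 and 19 at a log2 change of at least 1, 20 and 62 with RLE factors, 19 and 119 with library size alone, 42 and 291 with no filter, 59 and 155 at 10 CPM or more, 104 and 119 with the likelihood ratio test, and 125 and 220 with DESeq2. With only the groups compared, edgeR called 0 higher and 0 lower, with 1339 of 17261 genes at an unadjusted p under 0.05. Leaving out 1 library gave 7 to 100 higher and 9 to 751 lower, the last without NaAsO2 insoluble replicate 1. Library size alone also moved the share of higher calls from 47.4% to 16.9% after NaAsO2 in the soluble fraction and from 49.1% to 66.0% for the change in ratio after NaAsO2.

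Leaving out 1 library, ZFP36L1 exon reads ranged over 0.25 to 0.36 (NaAsO2, soluble), 0.32 to 0.45 (RK-33, soluble), 0.27 to 0.32 (RK-33, insoluble) and 1.61 to 1.79 (change in ratio after NaAsO2). ZFP36L2 exon reads ranged over 0.21 to 0.38 (RK-33, insoluble) and 0.26 to 0.40 (co-treated against RK-33, soluble). Intron values ranged over 1.18 to 1.62 and 1.62 to 2.13 for ZFP36 (RK-33, soluble and insoluble), 0.50 to 0.70 and -0.56 to -0.20 for ZFP36L1 (RK-33, soluble, and co-treated against RK-33, insoluble), and 1.05 to 1.61 for ZFP36L2 (co-treated against RK-33, insoluble).

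The replicate numbers were not shown to pair the soluble with the insoluble libraries. Same-numbered soluble and insoluble libraries had correlations of their deviations of -0.28 to 0.0975, with 0 of 12 over 0.1. Of 12 soluble libraries, 4 correlated best with their own number. Across treatments, same-numbered insoluble libraries had correlations of up to 0.435 (replicate 1), 0.355 (replicate 2) and 0.645 (replicate 3). For soluble libraries the highest was 0.184. Whether insoluble libraries of a number share a batch was not tested. With a replicate block, 45 of 45 values of the 3 genes were classed as unchanged. The block was treatment and number together for the ratios, and the number alone for comparisons within a fraction. Tested values stayed on the same side of the threshold, and values without a test moved less than the replicate spread. The block left 3 higher and 4 lower calls on the ratio over all genes.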
